A study of Mus musculus with 8 samples.

Results

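The thin filament of striated muscle is an actin strand that carries tropomyosin and the troponin complex, and 10 of its genes are described here in mouse gastrocnemius. They were taken by name from the 21833 gene symbols of the deposited count tables. Fast-fibre members are Tnnt3, Tnni2, Tnnc2 and Tpm1, slow-fibre members are Tnnt1, Tnni1, Tnnc1 and Tpm3, and Tpm2 and Acta1 serve fibres of either kind. All 10 were in the tables, and all 10 passed the filter on low counts. In RA+Dipy mice (n = 4) arthritis was set up by serum transfer and dipyridamole was given at 25 mg/kg per day from day 0. In RA mice (n = 4) the serum was given without the drug, and the sources used here name no vehicle. Every recipient was a male C57BL/6J mouse aged 12 weeks, injected on days 0 and 2 with pooled serum of arthritic K/BxN animals, and muscle was taken on day 16. The arthritis is therefore passed on by antibody and not bred into the recipients, and muscle of mice without arthritis was not analysed here.

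Calcium binds troponin C, which releases the hold of troponin I on actin. Troponin T ties the complex to tropomyosin, which then moves on the actin strand and lets myosin bind. Fast and slow fibres use different genes for each of these subunits, so that their relative transcript levels follow the fibre make-up of a muscle. Gastrocnemius of the mouse is mostly fast, with a small slow share. The comparison asks whether transcript levels of the fast or slow forms, or their balance, differed in arthritic muscle when dipyridamole was given.

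The fast troponin C gene could not be measured from these counts, and its sequence and annotation show the limit. In GENCODE vM21 (GRCm38), Tnnc2 lies on the minus strand of chromosome 2 at 164777161 to 164779967. A long last exon of Ube2c, on the opposite strand, covers 592 of its 800 exon bases and 477 of its 480 coding bases. Counting ignored strand, per the series' design text, so that reads of either gene within the shared bases cannot be told apart. Of the 601 places where a read of 100 bases can start on its spliced protein-coding transcript, 0 avoid the exons of Ube2c. Tnnc2 received 47, 36, 41 and 22 counts in RA+Dipy replicates 1 to 4, against 137, 35, 27 and 29 in RA replicates 1 to 4. Ube2c, which encodes a ubiquitin-conjugating enzyme of dividing cells, received 18, 50, 30 and 30 counts in RA+Dipy muscle and 149, 34, 23 and 24 in RA muscle. These counts are reported, but they are not a level of fast troponin C. How the counting treated overlaps is not given, and the part of the overlap in the low counts was not tested.

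**Figure D1:**
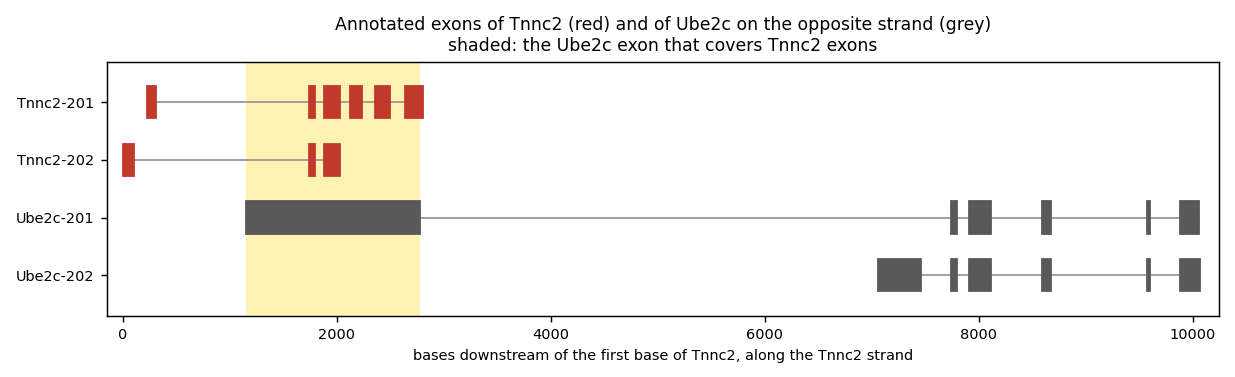
Exons of the annotated transcripts of Tnnc2 and of Ube2c, with the position in bases downstream of the first Tnnc2 base on the horizontal axis and a row for each transcript. The shaded Ube2c exon covers 592 of the 800 Tnnc2 exon bases.

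The slow partner Tnnc1 is not drawn into this overlap. It lies on chromosome 14 at 31208312 to 31211729 (plus strand), within the bounds of Nisch, with which it shares 0 exon bases. The coding sequences of the pair are 70.4% identical over 476 aligned bases. Read in the same direction, 0 of the windows of 100 bases in either gene recur in a transcript of another gene. The reverse direction was not searched, so the bases that Tnnc2 shares with Ube2c are not in this count. The start of both coding sequences is shown from GENCODE transcripts, because the counts of only one of the pair can be read as a level. Capitals mark the positions that differ or face a gap, 52 over this stretch of 150 Tnnc2 bases.
Tnnc2: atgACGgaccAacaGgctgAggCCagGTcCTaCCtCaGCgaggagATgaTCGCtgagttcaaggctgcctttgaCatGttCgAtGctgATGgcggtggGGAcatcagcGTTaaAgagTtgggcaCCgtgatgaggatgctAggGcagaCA
Tnnc1: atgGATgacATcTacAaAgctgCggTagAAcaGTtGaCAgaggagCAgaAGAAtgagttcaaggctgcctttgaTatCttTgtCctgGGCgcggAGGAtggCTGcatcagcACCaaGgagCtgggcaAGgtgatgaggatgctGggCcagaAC

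The other members had exons of their own. Tnni2 (chromosome 7, 142441808 to 142444410) and Tnnt3 (chromosome 7, 142498836 to 142516009) are neighbours 54.4 kb apart, a fast pair on the plus strand. Slow Tnnt1 (chromosome 7, 4504570 to 4516382, minus strand) lies 1.92 kb from the cardiac Tnni3, and slow Tnni1 (chromosome 1, 135779434 to 135810989) lies 25.4 kb from the cardiac Tnnt2. Tpm1 is on chromosome 9 (67022590 to 67049406), Tpm2 on chromosome 4 (43514711 to 43523765), Tpm3 on chromosome 3 (90072649 to 90100902) and Acta1 on chromosome 8 (123891769 to 123894751). Windows shared with another gene in the same direction occurred only in Tpm3, where 15.8% of 6471 windows recur in its copy Tpm3-rs7, which itself had 5 to 42 counts. Reads from those windows cannot be assigned, so Tpm3 may be counted short. Tpm1 and Tpm3 each have many annotated transcripts (21 and 16), including forms of cells other than muscle, and the gene counts add all of them.

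One library in each group stood apart over the whole transcriptome. Over 4757 well expressed genes, log2 deviations from the 8-library median had an SD of 0.81 in RA+Dipy replicate 1 and 1.20 in RA replicate 4, against 0.17 to 0.35 in the others. These were also the shallowest, at 16.4 and 16.7 M (mega) counts, in a range up to 50.6 M. Mitochondrial genes took 12.8% of counts in RA replicate 4 and 4.76% to 8.23% in the other 7 libraries, and their part in the results was not tested. Gene length moved with the libraries. Genes with exons under 1 kb (112 genes) had median deviations of 1.09, −0.16, −0.28 and −0.61 in RA+Dipy replicates 1 to 4. In RA replicates 1 to 4 they were 0.28, −0.41, 0.26 and 0.86. Genes of 1 to 3 kb (1227 genes) had medians of 0.24, −0.03, −0.12 and −0.27 in RA+Dipy replicates 1 to 4. Their medians were 0.19, −0.14, 0.17 and 0.24 in RA replicates 1 to 4. By all annotated exon bases, Tnnt3, Tnnt1, Tnni2, Tnnc1, Tpm2 and Acta1 are in this class. Only Tnnc2 of the members is under 1 kb on that measure. The principal transcripts of Tnni2 (768 bases), Tnnc1 (721) and Tnnc2 (700) are all under 1 kb. For genes of 3 kb or longer, all 8 medians lay between −0.08 and 0.03. The part of length in the results below was not tested.

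The members took 10.4% to 13.4% of all counts in the 8 libraries. Scaled per kilobase of exon union (all annotated exon bases of a gene), Tnnt3 averaged 18439 ± 3094 CPM (counts scaled to library size) per kb in RA+Dipy muscle and 25736 ± 7637 in RA muscle (SD, n = 4 each). Acta1 averaged 21494 ± 6277 and 22556 ± 3325 CPM per kb. Next came Tnni2 at 11669 ± 9373 and 12502 ± 6095, Tpm1 at 3859 ± 1290 and 4855 ± 1408, and Tpm2 at 2638 ± 292 and 2850 ± 1013. The slow members were far lower. Tnnc1 averaged 116 ± 112 CPM per kb in RA+Dipy muscle and 183 ± 144 in RA muscle, and Tnnt1 53.7 ± 26.6 and 81.8 ± 38.8. Tpm3 averaged 20.5 ± 7.18 and 27.1 ± 12.3, and Tnni1 16.6 ± 10.5 and 24.4 ± 11.4. Neighbours in this order overlapped within 1 SD in both groups for Tnnt3 and Acta1, Tpm1 and Tpm2, Tnnc1 and Tnnt1, and Tpm3 and Tnni1. The step from Tpm2 down to Tnnc1, the first slow member, was beyond the spread in both groups. Per length of the principal transcript, Tnni2 (23558 CPM per kb over 8 libraries) stood level with Acta1 (23396), below Tnnt3 (34722).

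Troponin T, the subunit that binds tropomyosin, was lower on average in RA+Dipy muscle in its fast and its slow form, and neither difference passed the test. Tnnt3 stood at 33086, 32873, 28088 and 22710 CPM in RA+Dipy replicates 1 to 4, against 40931, 28532, 36327 and 57171 CPM in RA replicates 1 to 4. The groups overlapped at RA replicate 2, and RA replicate 4 was the highest of all. Its log2 fold change was −0.48 (SE 0.32, 95% interval −1.20 to 0.24, edgeR adjusted p = 0.882), and −0.26 without RA replicate 4. Tnnt1 stood at 180, 130, 125 and 38.5 CPM in RA+Dipy muscle, against 161, 67.4, 247 and 246 CPM in RA muscle. The lowest library was RA+Dipy replicate 4 and the next RA replicate 2, so the groups ran through each other. Its log2 fold change was −0.61 (SE 0.50, interval −1.73 to 0.51, edgeR adjusted p = 0.882), and −0.31 without RA+Dipy replicate 4.

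Troponin I, the subunit that inhibits the actin and myosin interaction, followed the same libraries. Tnni2 stood at 38344, 12298, 11173 and 8061 CPM in RA+Dipy muscle, against 16369, 10483, 16242 and 31768 CPM in RA muscle. RA+Dipy replicate 1 and RA replicate 4, which stood apart over the whole transcriptome, held its highest values. The log2 fold change was −0.10 (SE 0.54, interval −1.30 to 1.11, edgeR adjusted p = 0.968), −0.83 with RA+Dipy replicate 1 left out and 0.31 with RA replicate 4 left out. Tnni1 stood at 110, 56.2, 54.1 and 18.3 CPM in RA+Dipy muscle, against 80.5, 32.7, 116 and 122 CPM in RA muscle. Replicate 4 of RA+Dipy was again lowest and replicate 2 of RA next. Its log2 fold change was −0.56 (SE 0.53, interval −1.74 to 0.63, edgeR adjusted p = 0.882), −1.03 with RA+Dipy replicate 1 left out, and −0.25 if replicate 4 of that group was left out instead.

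Slow troponin C, the calcium sensor of slow fibres and of the heart, had the widest range of the members. Tnnc1 stood at 290, 86.4, 82.1 and 24.0 CPM in RA+Dipy muscle, against 126, 44.0, 197 and 396 CPM in RA muscle. The highest library was 16.5-fold above the lowest. The log2 fold change was −0.66 (SE 0.76, interval −2.34 to 1.02, edgeR adjusted p = 0.885). It was −1.57 when RA+Dipy replicate 1 was left out and 0.0082 when RA replicate 4 was. With both of these left out it was −0.92 (SE 0.61), and with RA+Dipy replicate 4 alone left out −0.32. For Tnnc2, with the limit given above, the fold change was −0.13 (SE 0.46, edgeR adjusted p = 0.952).

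Among the tropomyosins, the rods that cover the myosin sites on actin, Tpm1 is the alpha form of fast fibres, Tpm3 the alpha form of slow fibres and Tpm2 the beta form. Tpm1 stood at 36362, 24299, 23232 and 16216 CPM in RA+Dipy muscle, against 30033, 21695, 30434 and 43770 CPM in RA muscle. Its log2 fold change was −0.33 (SE 0.36, interval −1.12 to 0.46, edgeR adjusted p = 0.885) and −0.11 without RA replicate 4. Tpm3 stood at 152, 151, 136 and 59.9 CPM in RA+Dipy muscle, against 171, 89.9, 266 and 133 CPM in RA muscle. Replicate 4 lay well below the other RA+Dipy libraries. The log2 fold change was −0.40 (SE 0.40, interval −1.29 to 0.48, edgeR adjusted p = 0.882) and −0.08 without RA replicate 3. Tpm2 varied least of the tropomyosins, at 7906, 7283, 8739 and 6763 CPM in RA+Dipy muscle and 7085, 5503, 8182 and 12394 CPM in RA muscle. Its log2 fold change was −0.11 (SE 0.32, edgeR adjusted p = 0.943), and 0.16 without RA replicate 4.

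Acta1, the skeletal actin of the strand itself, differed little between the group means. It stood at 19064, 37487, 40862 and 34648 CPM in RA+Dipy muscle, against 34134, 32090, 41957 and 30402 CPM in RA muscle. Its lowest library was RA+Dipy replicate 1, where Tnni2 was highest. The log2 fold change was −0.07 (SE 0.33, interval −0.80 to 0.66, edgeR adjusted p = 0.963), and 0.12 without RA+Dipy replicate 1.

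**Figure D2:**
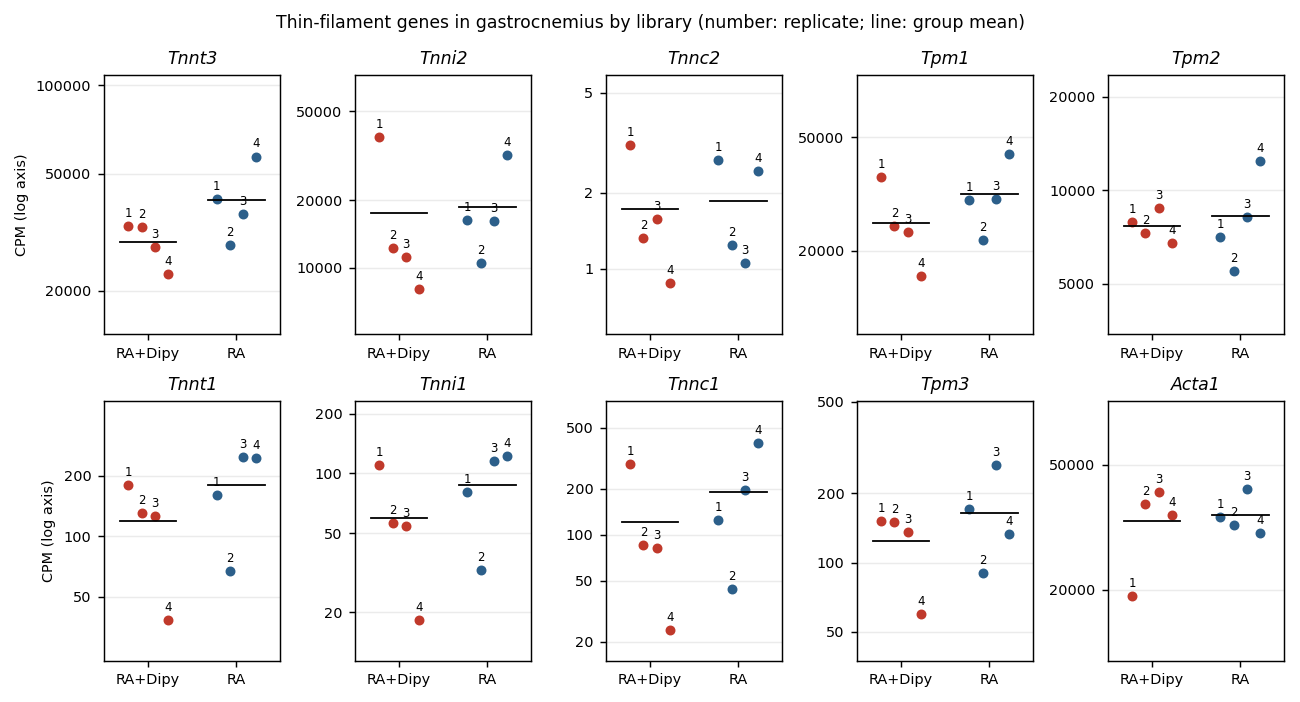
CPM of the 10 genes (log axis) in each library, RA+Dipy left and RA right, with replicate numbers and the group mean as a line. RA+Dipy replicate 4 is the lowest of 8 libraries in 8 of the 10 genes, and the groups overlap in all 10. The 8 include Tnnc2, whose counts are no level of that gene.

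Taking the comparison as a whole, 0 of the 10 members passed an adjusted p of 0.05 in edgeR, where 0% of 12755 genes tested did, and 0 members at an unadjusted p under 0.05, where 3.83% of genes did (488 genes, 2.15% lower and 1.68% higher). The groups overlapped for all 10 members, and across the tested genes they did not overlap for 2.72% (1.26% lower and 1.46% higher). Each of the 10 fitted fold changes was below 0, where 47.8% of all tested genes were. The medians were −0.58 for the 4 slow members and −0.23 for the 4 fast members, against 0.02 for all tested genes. The fast median counts Tnnc2, and the other 3 fast members lay between −0.48 and −0.10. The members were measured in the same libraries, so this count is not 10 separate observations. With limma-voom and library weights, 0 members were called where 1.04% of genes were, and 6 members were lower at an unadjusted p under 0.05, where 14.5% of genes were. Without the libraries that stood apart 8 of 10 were below 0, and without RA replicate 4 alone 6 of 10. Limits of the 95% intervals reached −2.34 for Tnnc1 and −1.20 for Tnnt3, so differences of that size are not excluded by these 8 libraries.

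**Figure D3:**
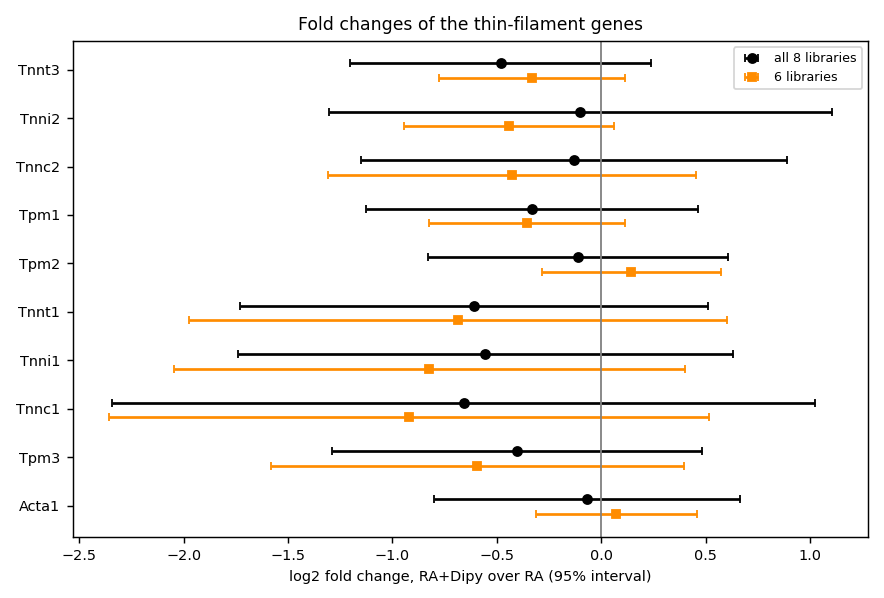
Log2 fold change of RA+Dipy over RA (horizontal axis) with its 95% interval for each gene, in all 8 libraries (black) and in the 6 left without RA+Dipy replicate 1 and RA replicate 4 (orange). Every interval crosses 0 in both fits.

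The fast to slow balance was read as a ratio of counts within each library, which does not depend on library scaling. The Tnnt3 to Tnnt1 ratio was 184, 253, 224 and 590 in RA+Dipy replicates 1 to 4, against 255, 423, 147 and 233 in RA replicates 1 to 4. RA+Dipy replicate 4 was highest and RA replicate 3 lowest, with the rest mixed. The log2 ratio averaged 8.13 ± 0.74 in RA+Dipy muscle and 7.94 ± 0.63 in RA muscle (SD, n = 4 each), a difference of 0.19 (exact two-sided permutation p = 0.714). Without RA+Dipy replicate 4 the difference was −0.17, and without RA replicate 3 it was −0.06. Per length of exon, the ratio ran from 204 to 822 over the 8 libraries, so that fast troponin T transcripts exceeded slow ones by 2 orders of magnitude or more in every mouse.

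The Tnni2 to Tnni1 ratio was 348, 219, 207 and 441 in RA+Dipy muscle, against 203, 320, 140 and 260 in RA muscle. The log2 ratio averaged 8.17 ± 0.53 and 7.79 ± 0.51, a difference of 0.39 (exact two-sided permutation p = 0.314, n = 4 each). RA+Dipy replicates 1 and 4 lay above every RA library, and the other 2 lay among them. The Tpm1 to Tpm3 ratio was 240, 161, 171 and 271 in RA+Dipy muscle, against 176, 241, 114 and 330 in RA muscle. Its log2 mean was 7.68 ± 0.37 and 7.64 ± 0.65, a difference of 0.04 (exact two-sided permutation p = 0.943, n = 4 each), which was −0.23 without RA replicate 3. The Tnnc2 to Tnnc1 ratio was 0.0107, 0.0154, 0.0192 and 0.0366 in RA+Dipy muscle and 0.0215, 0.0283, 0.00535 and 0.00619 in RA muscle. With log2 means of −5.76 ± 0.75 and −6.39 ± 1.23, it differed by 0.63 (exact two-sided permutation p = 0.429, n = 4 each), but its numerator is not a level of Tnnc2. Adjusted over these 4 ratios, the p-values were 0.857 to 0.943, and the smallest p that 70 assignments can give is 0.0286.

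**Figure D4:**
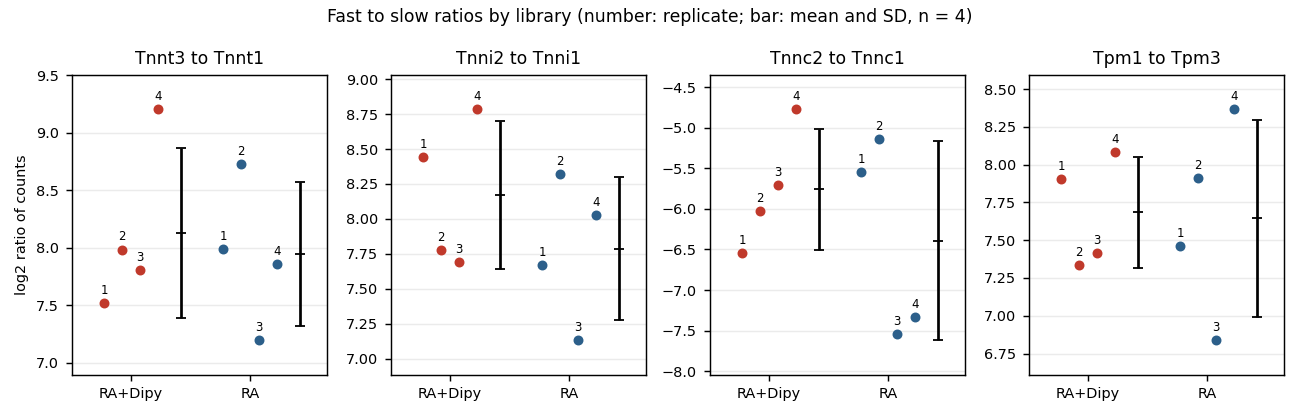
Log2 ratio of fast to slow counts in each library for 4 gene pairs, RA+Dipy left and RA right, with the mean and SD of each group beside its points. The groups overlap in each pair, and RA+Dipy replicate 4 is the highest RA+Dipy library in all 4.

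Slow members varied widely between mice of either group, and they did so together. Over 8 libraries the SD of log2 CPM was 0.93 for Tnnt1, 0.97 for Tnni1, 1.36 for Tnnc1 and 0.64 for Tpm3, against a median of 0.49 for all tested genes. The fast members Tnni2, Tpm1 and Tnnt3 had SDs of 0.79, 0.45 and 0.40. In the 6 libraries other than those that stood apart, the slow SDs were 0.95, 0.94, 1.08 and 0.75, against a median of 0.25. Those of Tnni2, Tpm1 and Tnnt3 were 0.39, 0.34 and 0.30 in these 6 libraries. In that set all 4 slow members were highest in RA replicate 3, and over all 8 libraries all 4 were lowest in RA+Dipy replicate 4. Neither trait was particular to slow members. Fast Tpm1 and the shared Acta1 were also highest of the 6 in RA replicate 3, at 30434 and 41957 CPM. Among the 6, Tnnt3 and Tnni2 were highest in RA replicate 1 and Tpm2 in RA+Dipy replicate 3. The fast members Tnnt3, Tnni2 and Tpm1 were lowest of 8 in RA+Dipy replicate 4. So were the Tnnc2 counts, which are no level of that gene. Tnnt1 and Tnni1 tracked each other with r = 0.99 over 8 libraries, and Tnni1 and Tnnc1 with r = 0.97. For Tpm3 and Tnnc1 r was 0.72 over 8 libraries and 0.995 in the 6. For fast Tpm1 and slow Tnnc1 it was 0.98 and 0.97. The points share library depth and scaling, so these are descriptions. Fast members went the same way as slow ones and not the opposite way: r was 0.81 between Tnnt3 and Tnnt1, and 0.84 between Tnni2 and Tnni1. Acta1 had r of −0.11 with Tnnt1 and −0.70 with Tnni2 over 8 libraries. In the 6 libraries other than those that stood apart, both were positive, at 0.64 and 0.36.

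Of the other slow-fibre genes, Myl2 and Myh7 were lowest in RA+Dipy replicate 4, as the slow members were, and Atp2a2 was not. The 14 genes of that list that are in the tables summed to 3463 to 5022 CPM in RA+Dipy muscle and 3607 to 5009 CPM in RA muscle. Myl2, the slow regulatory myosin light chain, stood at 211, 162, 137 and 47.0 CPM in RA+Dipy muscle, against 190, 98.1, 284 and 257 CPM in RA muscle. Myh7, the slow myosin heavy chain, stood at 80.2, 88.9, 100.0 and 39.7 CPM in RA+Dipy muscle, against 71.0, 59.3, 129 and 82.2 CPM in RA muscle. Both were highest in RA replicate 3. Atp2a2, the slow calcium pump, ran from 100.4 to 194 CPM in RA+Dipy muscle. In RA muscle it was at 125 to 224 CPM in replicates 1 to 3 and at 35.5 CPM in replicate 4, so that it did not follow there. Among 6932 other genes with a mean of at least 10 CPM, those most like the mean of Tnnt1, Tnni1 and Tnnc1 over the 8 libraries were Myl2 (r = 0.97, rho = 0.93), Cox5b, a subunit of cytochrome c oxidase (0.97, 0.98), and Myl3, the slow essential light chain (0.97, 0.90). Otulin (0.96, 1.00), which removes linear ubiquitin chains, and Ramp1 (0.96, 0.95), a receptor partner for calcitonin gene-related peptide, came next. In the 6 libraries the r of these 5 genes was 0.95 to 0.99. The fast profile, the mean of Tnnt3, Tnni2 and Tnnc2, includes the Tnnc2 counts that are no level of that gene. With that limit, the genes most like it were Alkbh7, Spag7, Churc1, Pomp, a proteasome assembly factor, and Atpif1, an inhibitor of the mitochondrial ATP synthase (r = 0.98 to 1.00). None of these 5 was on the list of other fast-fibre genes.

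**Figure D5:**
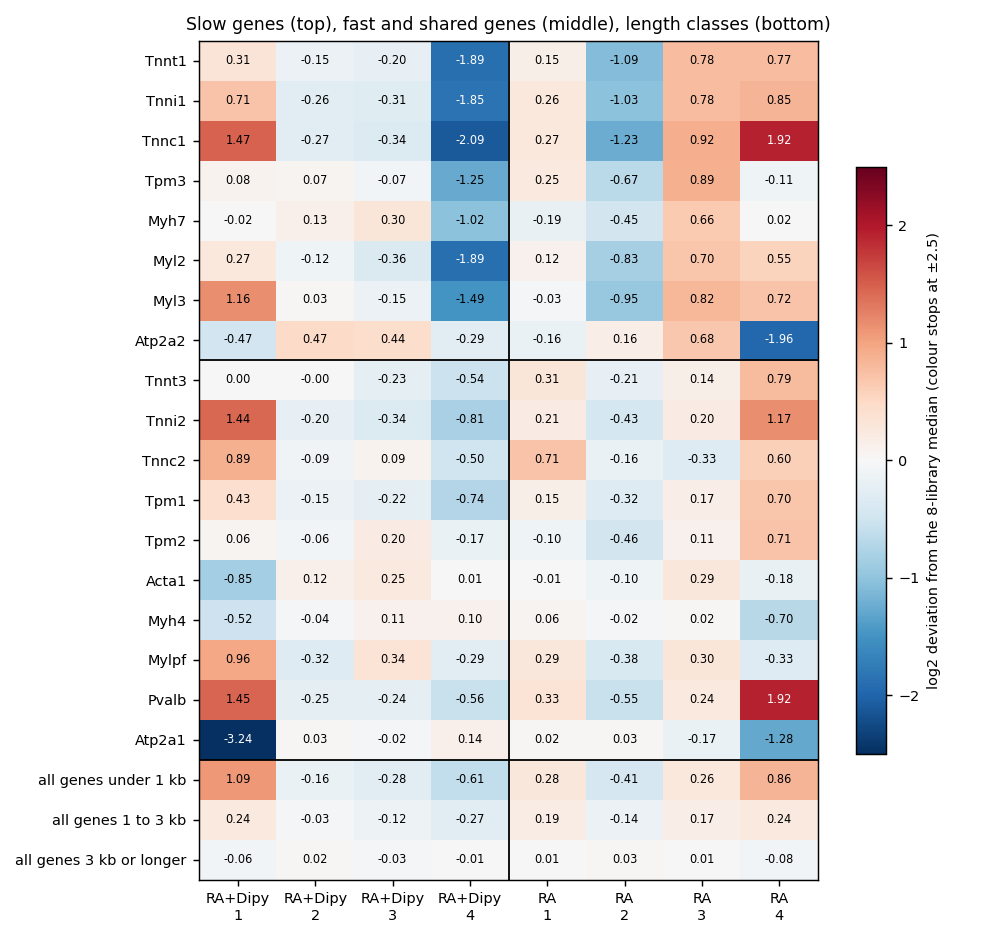
Log2 deviation of each gene from its 8-library median, in columns of RA+Dipy (left) and RA (right) libraries, with slow genes above, fast and shared genes in the middle and the median of all genes by length class at the foot. The slow genes are blue in RA+Dipy replicate 4 and, Atp2a2 apart, in RA replicate 2. Tnnt3, Tnni2 and Tpm1, and the Tnnc2 counts, are below 0 in both libraries too. Genes under 1 kb deviate by −0.61 and −0.41 there, and genes of 1 to 3 kb by −0.27 and −0.14.

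Promoter sequence is shown for the slow members Tnnt1 and Tnnc1 (r = 0.94 over 8 libraries). Fast Tpm1 followed Tnnc1 more closely (r = 0.98), and the part of these sequences in the variation was not tested. RefSeq (GRCm38.p6) gave 10 windows of 250 bases upstream of a start for 8 of the 10 members, and none was matched for Tnnt3 and Tnni2. Tnni1 and Tpm3 gave more than 1 window each, and those of Tnni1 overlap and share E-boxes, so the 10 windows are not separate promoters. The E-box CANNTG, which myogenic factors bind, was in 10 of these 10 windows and in 66.2% of all 32851 promoters of the table. MCAT, CATTCC on either strand, the site of TEAD factors, was in 3 of 10 and in 12.6% of all. The MEF2 site was in 0 of 10 and in 2.92% of all, and no match says only that its letters are not in these windows. Capitals mark E-box and MCAT letters, which do not overlap here.
Tnnt1 (chr7:4515976-4516225, minus strand): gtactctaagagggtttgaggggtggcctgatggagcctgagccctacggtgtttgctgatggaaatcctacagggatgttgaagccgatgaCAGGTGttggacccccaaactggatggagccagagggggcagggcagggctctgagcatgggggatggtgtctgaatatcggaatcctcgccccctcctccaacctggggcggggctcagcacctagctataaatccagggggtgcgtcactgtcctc
Tnnc1 (chr14:31208062-31208311, plus strand): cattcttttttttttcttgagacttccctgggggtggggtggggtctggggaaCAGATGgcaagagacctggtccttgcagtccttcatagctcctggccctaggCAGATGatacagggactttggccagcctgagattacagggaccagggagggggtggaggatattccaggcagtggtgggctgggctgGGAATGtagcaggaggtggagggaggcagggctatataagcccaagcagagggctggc

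Genes that set thin-filament length and cap its ends gave no call either. Of 17 listed, 13 were above 0 and 4 below, with a median log2 fold change of 0.14 and 0 past the threshold. Of all tested genes, 47.8% were below 0. Lmod2, a leiomodin that elongates the filament, averaged 99.0 ± 30.0 CPM in RA+Dipy muscle and 71.5 ± 24.8 in RA muscle (log2 0.47, SE 0.34). Tmod1, which caps the pointed end, averaged 85.4 ± 51.4 and 57.7 ± 37.3 CPM (0.57, SE 0.59), and Klhl40, which stabilises nebulin and leiomodin, 182 ± 119 and 317 ± 323 CPM (−0.80, SE 0.64). Xirp1, an actin-binding repeat protein, averaged 114 ± 29.6 and 151 ± 37.9 CPM (−0.41, SE 0.29). Without the libraries that stood apart Klhl40 was at −0.33 and Xirp1 at −0.04. Of 8 tested cardiac, developmental and non-muscle filament genes, 3 were above 0 and 5 below (median −0.52, and 0.01 without the libraries that stood apart). Actc1, cardiac actin that muscle expresses before birth, averaged 1063 ± 789 CPM in RA+Dipy muscle and 630 ± 394 in RA muscle (0.75, SE 0.58), and cardiac Tnnt2 5.07 ± 2.00 and 10.1 ± 7.96 CPM (−0.99, SE 0.55, and −0.55 without the libraries that stood apart).

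Other fibre-type genes were as mixed. Over all tested genes, 47.8% were below 0 and 3.83% had an unadjusted p under 0.05. Of 14 other slow-fibre genes tested, 9 were below 0 and 5 above (median −0.13), 0 passed the threshold and 1 had an unadjusted p under 0.05. That one was Myl6b, a slow light chain, at 8.12 ± 2.64 CPM in RA+Dipy muscle and 17.5 ± 11.6 in RA muscle (log2 −1.10, SE 0.44, and −0.36 without the libraries that stood apart). Of 16 other fast-fibre genes, 8 were below 0 and 8 above (median −0.01), from Cacng1, a calcium channel subunit, at −1.16 to Myh1, the fast IIx heavy chain, at 0.60. Cacng1 was the 1 of these with an unadjusted p under 0.05, and it was at −0.45 without the libraries that stood apart. Of 29 regulators of fibre type, 19 were below 0 and 10 above (median −0.11, 0 past the threshold). Maf, of the large Maf factors that drive fast IIb fibres, averaged 472 ± 405 CPM in RA+Dipy muscle and 1051 ± 1249 in RA muscle (−1.16, SE 0.77), and Srf, which drives actin genes, 87.0 ± 12.1 and 120 ± 30.9 CPM (−0.47, SE 0.25). Without the libraries that stood apart, Maf was at −0.66 and Srf at −0.20. These lists had been chosen with earlier results of the same data known.

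Markers of other cells are given because tropomyosins are not confined to muscle fibres. In whole muscle, fewer cells of a type and less RNA per cell cannot be told apart. For the counts below, 47.8% of all tested genes were below 0 and 3.83% had an unadjusted p under 0.05. The 9 smooth muscle and pericyte markers, all detected, summed to 598 to 693 CPM in RA+Dipy libraries and 670 to 1014 in RA libraries, with 3 of 9 fold changes above 0. The 10 macrophage markers summed to 183 to 377 and 132 to 320 CPM, with 9 of 10 above 0, and the 8 fibroblast markers to 1867 to 3696 and 1439 to 2801 CPM, with 6 of 8 above 0 (4 of each list at an unadjusted p under 0.05, 0 past the threshold). The 7 Schwann cell markers summed to 186 to 298 and 259 to 590 CPM, with 7 of 7 below 0 and 3 at an unadjusted p under 0.05. The 7 endothelial markers summed to 182 to 337 and 210 to 276 CPM, and the 7 adipocyte markers to 301 to 990 and 221 to 660 CPM, with 6 of 7 above 0 in each (0 and 2 at an unadjusted p under 0.05). The adipocyte sum of 990 CPM was that of RA+Dipy replicate 4, the lowest library for all 4 slow members and for Tnnt3, Tnni2 and Tpm1. The other RA+Dipy libraries held 301 to 355 CPM. The sum of 660 CPM was that of RA replicate 4, and the other RA libraries held 221 to 286 CPM. Tnnc1 (396 CPM) and Tnni1 (122 CPM) were at their highest in RA replicate 4, and Tnnt1 and Tpm3 in RA replicate 3. The 6 erythrocyte markers summed to 153 to 799 and 149 to 1545 CPM, highest in the 2 libraries that stood apart. No list had a marker at 0 in all libraries. Of 8 cardiac muscle markers 3 were tested, and the sum of all 8, at 11.1 to 55.0 CPM in RA+Dipy and 13.5 to 85.3 CPM in RA muscle, was mostly Myl4 and Tnnt2. Nppa and Myl7, which define atrial muscle, had 0 or 1 count in every library. The part of these cells in the values above was not tested. The fast myosin heavy chain Myh4 took 2.11% to 6.06% of counts and slow Myh7 0.00465% to 0.0128%, the balance of a fast muscle.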

How the data were processed

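RNA from gastrocnemius of 8 mice was sequenced as poly(A) libraries (RA+Dipy 4, RA 4). The authors deposited raw read counts per protein-coding gene, not normalized. Per the labels' protocols, the series' design text and the submitters' processing notes, reads were trimmed with fastp 0.20.0, mapped by STAR 2.7.3a on the GRCm38.p6 assembly, and HTSeq did the counting, ignoring strand; its overlap mode and annotation release are not given in the sources used here. Samples were grouped by title; a protocol label names dipyridamole for all 8, RA included. Sums over 24 repeated symbols left 21833 symbols, and depths ran from 16.4 to 50.6 M counts. A floor of 3 counts is 0.0592 CPM in the deepest library and 0.183 in the shallowest, and covers counting error only.

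The groups were compared with the robust quasi-likelihood test of edgeR 4.0.16 (R 4.3.3) with TMM factors, after filterByExpr with a minimum count of 10 (12755 genes kept), with Benjamini-Hochberg adjustment over all of them, two-sided. The SE is the fold change over the root of F. The test was checked on simulated data. Ratios were tested by exact permutation of 8 libraries. DESeq2 1.42.0 and limma 3.58.1 served as alternatives. Exon lengths, overlaps and transcripts come from GENCODE vM21, upstream sequence from RefSeq. All members were named, and of each list the lowest and highest fold change and up to 2 further genes with the smallest p; not all are described. The members and lists were chosen with earlier results of these data known. No pair of libraries in a group agreed within sampling noise (smallest chi-square per degree of freedom 29.3).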

Additional observations from a re-analysis of the deposited data

Results flagged for a closer look

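Of 28 sets of 4 values checked (10 genes and 4 ratios in 2 groups), 1 held a value far from the rest, and chance flags about 1 in 20. It was Tpm3 in RA+Dipy muscle, where replicate 4 stood at 5.90 log2 CPM and the other 3 libraries at 7.09 to 7.24. The gap took a share of 0.885 of the group's range, above the critical 0.829. The same library was the lowest of 8 for 8 of the 10 members, all 4 slow and all 4 fast ones. The fast ones include Tnnc2, whose counts are no level of that gene.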

How the results depend on the processing

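Across 19 alternatives for each gene, 0 of 10 members were called under any, and 15 of 190 fold changes changed sign. All of these were values that did not pass the test. With libraries left out in turn, Tnni2 ran from −0.83 to 0.31, Tnnc2 from −0.55 to 0.13, Tnnc1 from −1.57 to 0.0082, Tpm2 from −0.26 to 0.16 and Acta1 from −0.19 to 0.12. With both libraries that stood apart left out, Tpm2 was at 0.14 and Acta1 at 0.072, and with limma-voom and library weights at 0.092 and 0.021. That weighted fit called 133 genes (1.04% of those tested) where edgeR and the other alternatives called 0, none of them a member. It gave an unadjusted p under 0.05 to 6 members, all lower, where 14.5% of tested genes were such (smallest adjusted p of a member 0.116). It weighted RA+Dipy replicate 1 at 0.174 and RA replicate 4 at 0.110; the cause was not tested. Unadjusted, 488 genes had a p under 0.05 in edgeR, 740 in DESeq2 and 1461 without both libraries. The log2 Tnnt3 to Tnnt1 difference ran from −0.17 to 0.45 with libraries left out and was −0.030 between medians. The Tpm1 to Tpm3 difference ran from −0.23 to 0.28 and was −0.027 between medians. The other 2 ratios kept their direction in all 12 alternatives each.

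Same-numbered libraries deviated from their group means with r of −0.20, 0.11, 0.15 and −0.27. Those means include the libraries that stood apart, so these r cannot show whether the replicate numbers paired the mice. With the number as a replicate block edgeR called 0 genes (165 at an unadjusted p under 0.05, against 488) and 0 members, and the ratio differences were 0.19, 0.39, 0.63 and 0.04 (exact sign-flip p = 0.750, 0.250, 0.625 and 1.00). Another scaling (DESeq2 size factors, upper quartile, or TMM without the 24 genes over 1% of a library) kept all 10 members below 0.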

Other observations

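Further ratios between members were computed after their values had been seen, and are given without a test. The Tpm2 to Tpm1 ratio of counts was 0.217, 0.300, 0.376 and 0.417 in RA+Dipy replicates 1 to 4, against 0.236, 0.254, 0.269 and 0.283 in RA replicates 1 to 4. RA+Dipy replicates 2 to 4 lay above every RA library. Replicate 1, which stood apart over the whole transcriptome, lay below every one, so the groups overlapped. Tpm1 to Acta1 was 1.91, 0.648, 0.569 and 0.468 in RA+Dipy replicates 1 to 4, against 0.880, 0.676, 0.725 and 1.44 in RA replicates 1 to 4. Tnnt3 to Acta1 was 1.74, 0.877, 0.687 and 0.655, against 1.20, 0.889, 0.866 and 1.88. The groups overlapped in these ratios too.

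Tnni2 to Tnnt3, the fast troponin I over the fast troponin T, was 1.16 in RA+Dipy replicate 1 and 0.355 to 0.398 in the other RA+Dipy libraries, against 0.367 to 0.556 in RA muscle. The Tnnc1 to Tnnt1 ratio was 1.62 in RA+Dipy replicate 1 and 1.61 in RA replicate 4. It was 0.625 to 0.666 in the other RA+Dipy libraries and 0.653 to 0.797 in the other RA libraries. Tnni1 to Tnnt1 held between 0.432 and 0.614 over all 8 libraries, the steadiest of these ratios.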
